A study of Mus musculus with 6 samples.

Results

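The genes described here prepare peptides for MHC class I molecules. They are 10 genes, all found by symbol among the 35598 genes of the tables: Tap1, Tap2, Tapbp, Calr and Erap1 of peptide transport, loading and trimming, Psmb8, Psmb9 and Psmb10 of the immunoproteasome, and its activator genes Psme1 and Psme2. They were measured in macrophages of the brain's borders, known as CNS-associated macrophages (CAMs). The cells were sorted from brains of male C57BL/6 mice as CD11b+, CD45+ and CD206+ cells without CD3. The study compared 3 libraries from mice of 2 months (young) with 3 libraries from mice of 18 months (aged), and no treatment or genetic change is given for either group. The labels do not say whether a library held cells of 1 animal or of several, so each p-value covers just the spread between libraries, part of which may be technical.

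Proteasomes cut cytosolic proteins into peptides, and interferon gamma induces 3 catalytic subunits that replace their standard counterparts during assembly, giving the immunoproteasome. The transporter made of Tap1 and Tap2 moves the peptides into the endoplasmic reticulum, where they are trimmed by Erap1 and fitted into class I molecules with the help of tapasin (Tapbp) and calreticulin (Calr). Class I molecules then show these peptides to CD8 T cells at the cell surface. In macrophages this machinery is active at rest and is a classical target of interferon signalling.

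Levels are given as read counts scaled to library size and normalized between libraries by TMM (CPM), and comparisons between genes use TPM, which is also scaled for gene length. Fold changes are log2 values of aged minus young libraries with a standard error (SE). Libraries held between 26605079 and 33306121 counts. Aged replicate 3 had the fewest genes with 5 counts or more, at 9866, against 10697 to 12523 in the other libraries. Over the tested genes, log2 CPM correlated at 0.671 to 0.757 between libraries of a group (6 pairs). Between libraries of different groups it correlated at 0.648 to 0.732 (9 pairs), so libraries of 1 group were hardly more alike. Mrc1, which encodes CD206, the marker used in the sort, was present throughout, with 2770, 2940 and 2674 CPM in the young libraries and lower values in each aged one, at 2345, 1182 and 1306 CPM. Its fitted value was -0.79 on the log2 scale with an SE of 0.32 (edgeR unadjusted p = 0.0352, adjusted p = 0.817). Transcripts of the CD3 chains, whose protein the sort excluded, were uneven: Cd3d reached 59.4 CPM and Cd3g 66.5 CPM in aged replicate 1, Cd3g was at 29.6 CPM in young replicate 1, and Cd3e stayed at 3.93 CPM or less. The sum of 14 T and NK cell markers lay between 16.7 and 94 CPM in young and between 7.99 and 159 CPM in aged libraries, with Gzma, Gzmb, Ncr1, Klrb1c and Ifng at 0 in all 6. The summed level of 13 CAM markers lay between 24412 and 28016 CPM in young libraries and between 8313 and 16896 CPM in aged ones, with all 13 detected in each library. The sum of 12 microglia markers lay between 5833 and 8393 CPM in the young libraries against between 11084 and 18432 CPM in the aged ones, all 12 being detected in each library. Neither the CAM nor the microglia sum overlapped between groups. Sums of erythroid markers (10100 to 30268 CPM in young and 85.8 to 9862 CPM in aged libraries) and neuron markers were also lower in each aged library. Those of astrocyte and oligodendrocyte markers were higher in each aged library. The other marker sums overlapped, and the part of any of these markers in the results below was not tested. Neutrophil markers summed to 37768, 12060 and 14489 CPM in the young libraries and to 21607, 7982 and 6.65 CPM in the aged ones. In young replicate 1 and aged replicate 1 that sum was above the CAM sum, which was 25716 and 16896 CPM there.

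Of the 10 genes, 4 stand side by side on chromosome 17 inside the MHC region, and this layout is shown first because 2 of them share a promoter. In the GENCODE M21 annotation of mm10, Psmb9 (ENSMUSG00000096727.3) runs on the minus strand from 34181987 to 34187764. Tap1 (ENSMUSG00000037321.17) starts on the plus strand at 34187553 and ends at 34197225, so the annotated ends of both genes overlap by 212 bases. Psmb8 (ENSMUSG00000024338.15, 34197721 to 34201454) begins 495 bases after Tap1, and Tap2 (ENSMUSG00000024339.12, 34203527 to 34216321) begins 2072 bases after Psmb8. Tapbp (ENSMUSG00000024308.15) lies on the same chromosome from 33915899 to 33929292. Psme1 (55578123 to 55581529) and Psme2 (55587441 to 55591113) are 5911 bases apart on chromosome 14 and point towards each other. Calr (84841850 to 84846934) and Psmb10 (105935735 to 105938444) are on chromosome 8 and Erap1 (74639568 to 74693201) on chromosome 13.

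**Figure D1:**
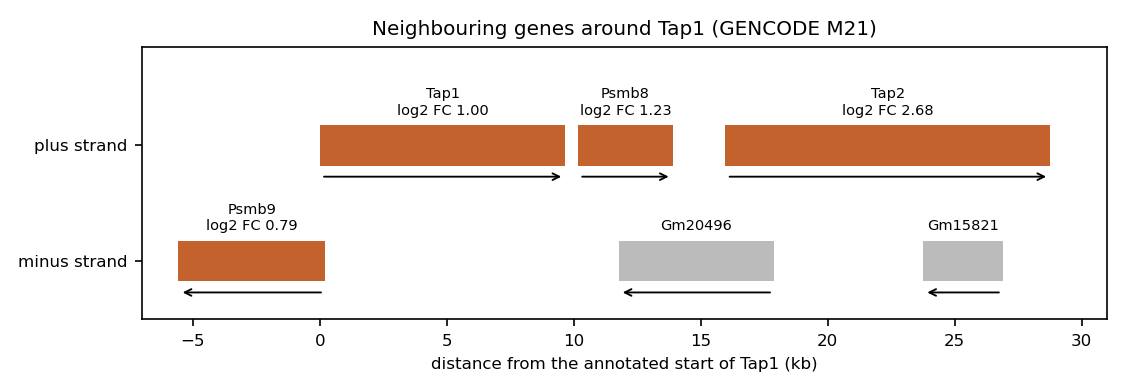
Position of Psmb9, Tap1, Psmb8 and Tap2 (orange) and of 2 antisense transcripts (grey), as the distance in kb from the annotated start of Tap1, with plus-strand genes above, minus-strand genes below and arrows along transcription. The number above each orange gene is its log2 fold change, from 0.79 for Psmb9 to 2.68 for Tap2, none of which passed the test over all genes.

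The stretch between the RefSeq starts of Psmb9 and Tap1 is 225 bases long with 61.3% G and C, and the promoter windows of the 2 genes (250 bases before to 50 after the start) share 275 bases. It is printed from the plus strand of GRCm38.p6, chr17:34187331-34187555, with Psmb9 transcribed to the left and Tap1 to the right. Capitals mark the CCAAT box match and the GC box match found by a search of both strands for the letters CCAAT and GGGCGG.
Tap1-Psmb9: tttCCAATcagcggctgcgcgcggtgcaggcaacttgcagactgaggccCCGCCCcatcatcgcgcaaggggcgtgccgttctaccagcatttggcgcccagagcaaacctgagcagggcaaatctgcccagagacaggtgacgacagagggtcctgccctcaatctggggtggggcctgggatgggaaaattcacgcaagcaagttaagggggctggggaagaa

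Letters of an interferon-stimulated response element (GAAA, any 2 bases and GAAA again, on either strand) were found in the windows of Erap1 and Psme1, 2 of the 9 genes in the RefSeq promoter table. Of all 32851 windows in that table, 3.44% held them. Both matches are shown with their surroundings, in capitals and along the gene's strand, from chr13:74639839-74639868 and chr14:55578493-55578522 of GRCm38.p6.
Erap1: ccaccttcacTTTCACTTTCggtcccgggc
Psme1: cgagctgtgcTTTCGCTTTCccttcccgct
The GC box was found in 7 of the 9 genes (35.7% of all windows) and the CCAAT box in 4 (37.4%). For both boxes, the match in the stretch between Tap1 and Psmb9 was counted for each of these 2 genes. The 9 genes had 10 windows, and the counts are per gene while the shares are per window. A palindromic gamma-activated site, TTCNNNGAA, was found in Psmb8 alone of the 9 (8.3% of all windows), and the NF-kB core (GGGA, any 4 bases and CC) in Calr alone (20.7%). No match of one motif overlapped a match of another. Such matches describe letters only. Tap2 is not among the 9 genes.

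All 10 genes passed the filter on low counts and all 10 fitted values were above 0, from 0.02 for Tapbp to 2.68 for Tap2, but 0 genes were called higher and 0 lower. The test was edgeR's quasi-likelihood test with adjustment over the 10661 genes tested, in which 0.00938% of all genes were called, higher or in either direction. At an unadjusted p under 0.05 there was 1 of the 10 genes, Psmb8, against 3.63% of all tested genes on the higher side, and 0 on the lower side (2.04%). That count was 2 in DESeq2, with no filter and without young replicate 2, 4 in limma-trend on TPM and 0 without young replicate 1. The share of all tested genes under that limit was taken in the main fit only. The counts in other settings therefore have no background beside them and cannot be read as a result about the 10 genes. DESeq2's Wald test (1.44% of all genes called), limma-voom (0%) and limma-trend on TPM (0.0214%) also called 0 of the 10, as did edgeR with no filter (0.273%), with at least 10 CPM in 3 libraries (0.0163%) and on abundant genes averaging 50 CPM or more (1.14%). Leaving out young replicates 1, 2 or 3 or aged replicate 1 called 0.00851%, 0.00848%, 0.0169% and 0.0168% of all genes, leaving out aged replicate 2 or 3 called 0%, and none of the 10 genes was among them. The median of the 10 fitted values was 0.95, beside -0.02 over all tested genes, of which 49.3% were fitted above 0. In CPM, 3 of the 10 genes (Tap2, Psmb10 and Erap1) were higher in every aged library than in any young one and 0 were lower, where 7.54% of tested genes were higher and 7.19% lower in that way. Among the tested genes that average 50 CPM or more, as 7 of the 10 do, 47.2% were fitted above 0, 11.2% were higher in every aged library and 8.45% lower. In these bulk libraries, fewer cells of a type and less RNA per cell cannot be told apart.

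**Figure D2:**
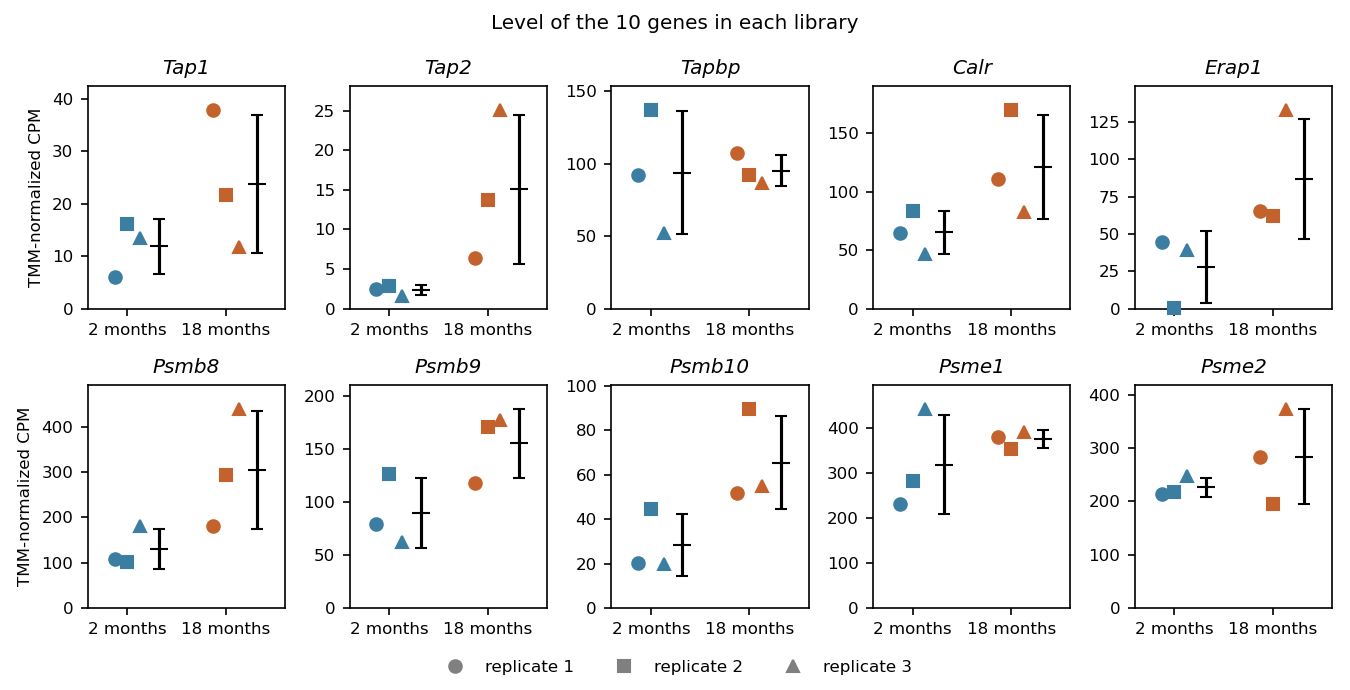
TMM-normalized CPM of each of the 10 genes (1 panel per gene, each with its own axis from 0) in the 3 young libraries (blue) and the 3 aged libraries (orange), with the mean and SD beside each group. Symbols mark the replicate, and the groups separate for Tap2, Psmb10 and Erap1.

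**Figure D3:**
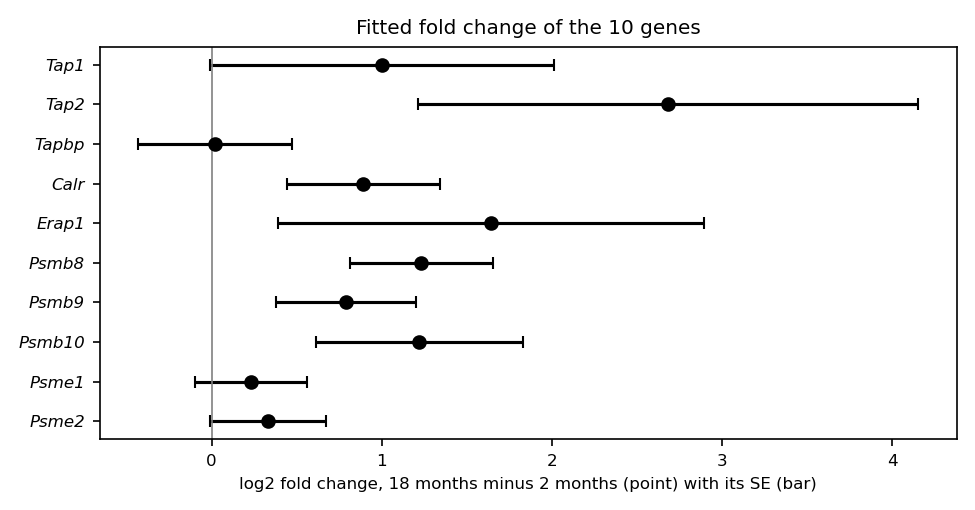
Log2 fold change of aged against young libraries for each gene (point) with its SE (bar). Tapbp, Psme1 and Psme2 lie between 0.02 and 0.33, and Tap2 and Erap1 have the widest bars, with SEs of 1.47 and 1.25.

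Psmb8, which encodes the inducible subunit that takes the place of Psmb5, had the smallest p of the 10. It was at 107, 101 and 181 CPM in the young libraries against 180, 294 and 439 CPM in the aged ones. Aged replicates 2 and 3 lay above all young libraries, and aged replicate 1 just under young replicate 3. The mean was 130 ± 44.8 CPM (SD, n = 3) in young and 304 ± 130 CPM in aged libraries, a log2 fold change of 1.23 (SE 0.42, edgeR unadjusted p = 0.0162, adjusted p = 0.707). Over the alternative settings its adjusted p ranged from 0.125 to 0.914.

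Psmb9, the inducible counterpart of Psmb6, was at 79.5, 126 and 62.3 CPM in the young libraries against 118, 171 and 177 CPM in the aged ones. Only young replicate 2 reached into the aged range. Its log2 fold change was 0.79 (SE 0.41, edgeR adjusted p = 0.916). Psmb10, the inducible counterpart of Psmb7, was at 20.4, 44.4 and 19.9 CPM in the young libraries against 52, 89.6 and 54.9 CPM in the aged ones. The groups did not overlap, and the log2 fold change was 1.22 (SE 0.61, edgeR adjusted p = 0.913).

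Psme1 and Psme2 encode the alpha and beta subunits of the 11S cap (PA28), which opens the proteasome core. Psme1 was at 230, 283 and 442 CPM in the young libraries against 381, 353 and 391 CPM in the aged ones. All 3 aged values lay within the young range (log2 fold change 0.23, SE 0.33, edgeR adjusted p = 0.993). Psme2 was at 214, 218 and 247 CPM in the young libraries against 284, 195 and 373 CPM in the aged ones. Aged replicate 2 was the lowest of all 6 libraries for Psme2 and aged replicate 3 the highest (log2 fold change 0.33, SE 0.34, edgeR adjusted p = 0.993). Psme2b on chromosome 11, whose transcript matched a Psme2 transcript at 99.4% of 794 aligned positions, held 17.5% of the reads assigned to both genes, so how reads were split between them is uncertain. Summed over both, the level was 254, 257 and 308 CPM in the young libraries against 352, 240 and 444 CPM in the aged ones, with aged replicate 2 again the lowest.

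Tap1 and Tap2, the subunits of the peptide transporter, had the lowest mean CPM of the 10 genes. Tap1 was at 5.99, 16.2 and 13.5 CPM in the young libraries against 37.9, 21.6 and 11.8 CPM in the aged ones. Aged replicate 3 lay inside the young range (log2 fold change 1.00, SE 1.01, edgeR adjusted p = 0.993). Without aged replicate 1 the fold change was 0.50. Tap2 was at 2.53, 2.87 and 1.65 CPM in the young libraries against 6.36, 13.7 and 25.1 CPM in the aged ones, with no overlap. Its log2 fold change was 2.68 with an SE of 1.47 (edgeR adjusted p = 0.929), and its lowest library rested on 46 reads (exact Poisson 95% interval 33.7 to 61.4, for counting error only). In TPM the groups overlapped, at 1.3, 8.7 and 0.252 in young and 1.13, 7.06 and 14.3 in aged libraries, the deposited length ran from 384 to 2897 bases, and the value in limma-trend on TPM was 1.08. In CPM, the aged library highest in Tap1 was the lowest of the aged ones in Tap2, and the reverse held for aged replicate 3.

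Tap1 and Psmb9 share the promoter stretch printed above but stood at different levels. Per length, Psmb9 was between 14.9 and 68.9 times Tap1 in TPM, with the lowest ratio in aged replicate 1 and the highest in aged replicate 3. In CPM, aged replicate 3 was the highest of all 6 libraries for Psmb9 and the second lowest for Tap1. Since the kit does not mark the strand, reads from the 212 overlapping bases of the 2 genes cannot be told apart.

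Genes that act in the endoplasmic reticulum differed from each other. Tapbp, which bridges the transporter and empty class I molecules, was at 92.4, 137 and 52 CPM in the young libraries against 107, 92.2 and 86.4 CPM in the aged ones. Its young libraries spanned the whole range, and its log2 fold change was 0.02 (SE 0.45, edgeR adjusted p = 0.998). The sign of that value turned without young replicate 3 (-0.26), without aged replicate 1 (-0.06) and in TPM (-0.24). Calr, a chaperone that binds newly made glycoproteins, was at 64.9, 83.9 and 46.9 CPM in the young libraries against 111, 170 and 82.3 CPM in the aged ones. Aged replicate 3 lay just under young replicate 2, and the groups otherwise separated (log2 fold change 0.89, SE 0.45, edgeR adjusted p = 0.913). Without aged replicate 2 the fold change was 0.58.

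Erap1, which trims peptides at their amino end, was at 44.4, 0.149 and 39.1 CPM in the young libraries against 65.1, 61.9 and 133 CPM in the aged ones. Young replicate 2 stood apart, with 4 rounded reads (exact Poisson 95% interval 1.09 to 10.2) where the other 5 libraries had between 1092 and 3765. The log2 fold change was 1.64 (SE 1.25, edgeR adjusted p = 0.992) with that library and 1.06 without it. In CPM, all aged libraries remained above the other 2 young ones. In TPM the groups overlapped, at 3.15, 0.01 and 19.1 in young and 13.8, 32.4 and 47.9 in aged libraries. The deposited length ran from 1104 to 5644 bases. In limma-voom the log2 fold change was 3.44. The gene overlaps Cast, a calpain inhibitor gene on the opposite strand, by 834 bases, and Cast was at 37.7 ± 16.5 CPM in the young libraries against 14.9 ± 14.1 CPM in the aged ones.

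Other transcripts overlap genes of the group, and without strand their reads cannot be told apart. Gm20496, antisense to Psmb8 and Tap2, did not exceed 3.61 CPM in any library, which is low beside Psmb8 but not beside Tap2: it was at 1 CPM in young replicate 3, where Tap2 was at 1.65 CPM. Emc9, opposite to Psme1 over 14 bases, reached 28.6 CPM. The reads of Psmb8, Psme2 and Erap1 were fractional in each of the 6 libraries, and those of Tap2 and Tapbp were whole in only 2. The other genes of the 10 had whole counts in all 6. Zbtb22, which shares the strand of Tapbp, did not exceed 16.5 CPM.

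Compared per length, the order of the 10 genes by median TPM over the 6 libraries was Psme2 (948), Psme1 (440), Psmb8 (112), Psmb9 (82.1), Psmb10 (57.8), Tapbp (24.1), Calr (18.2), Erap1 (16.4), Tap2 (4.18) and Tap1 (2.32). In each of the 9 neighbouring pairs of that order the ranges over libraries overlapped. Within single libraries, Psme2 was above Psme1, Psme1 above Psmb8 and Psmb9 above Psmb10 in all 6, while Tapbp was above Calr in 3 of 6. Psme2 was between 1.75 and 2.7 times Psme1 in TPM. That order depended on the length scaling: in CPM, Psme1 was above Psme2 in each of the 6 libraries. It also depended on the split of reads with Psme2b. Summed with Psme2b, Psme2 was above Psme1 in young replicate 1 (254 against 230 CPM) and aged replicate 3 (444 against 391 CPM). In the other libraries the sum stayed below Psme1. The deposited length of Psme2 was between 304 and 358 bases, against 580 to 650 bases for Psme1.

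The genes whose groups separated depended on the scale. In TPM they were Psmb8, Psmb9 and Psme2, 3 of the 10 where 9.71% of tested genes were higher in each aged library, and none of these separated in CPM. Psmb8 was at 62.8, 42.9 and 109 TPM in young and 115, 318 and 318 TPM in aged libraries, and Psme2 at 565, 746 and 890 TPM and at 1006, 1209 and 1259 TPM. The deposited gene lengths, which differ between libraries, moved as well. For Psmb8 the length was 906, 1193 and 901 bases in young and 884, 834 and 815 bases in aged libraries, shorter in each aged one, as for 4.77% of tested genes. For Psmb10 it was 530, 518 and 507 bases in young and 700, 662 and 584 bases in aged libraries, longer in each aged one, as for 3.5% of tested genes. Tapbp in young replicate 3 had a length of 634 bases against 1515 to 2652 in the other libraries. It was lowest there in CPM (52) and highest in TPM (54.8).

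The 3 inducible subunits were then set against the standard subunits they replace, as the log2 ratio of TPM + 1. For Psmb8 over Psmb5 the ratio was 0.63, 0.90 and 0.69 in young and 0.33, 1.81 and 2.38 in aged libraries. Aged replicate 1 was below all young libraries and the other 2 aged ones above them. For Psmb9 over Psmb6 it was -1.86, -0.73 and -1.93 in young and -0.59, 0.01 and -0.94 in aged libraries. Psmb6 was the more abundant partner in all 3 young libraries and in aged replicates 1 and 3. For Psmb10 over Psmb7 the ratio was -0.72, 1.23 and -1.17 in young and -0.59, 1.57 and 0.07 in aged libraries.

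The difference of aged minus young means was 0.76 for Psmb8 over Psmb5, 1.00 for Psmb9 over Psmb6 and 0.57 for Psmb10 over Psmb7. The 2-sided exact permutation p-values were 0.4, 0.2 and 0.5 (n = 3 each), and 0.5 for each after adjustment over the 3 pairs, where 3 against 3 libraries cannot give less than 0.1, so this test could not have called any of the 3. The ranges of the groups overlapped for each ratio. From counts not scaled for length, the first difference was 0.15 and the third 1.11, so the size of both depended on the length scaling. The standard subunits themselves were at 58.4 ± 36.1 and 105 ± 28.7 CPM (Psmb5), 217 ± 55.2 and 224 ± 103 CPM (Psmb6) and 111 ± 48.7 and 124 ± 49.7 CPM (Psmb7) in young and aged libraries, with log2 fold changes of 0.84 (SE 0.56), 0.05 (SE 0.40) and 0.16 (SE 0.49).

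**Figure D4:**
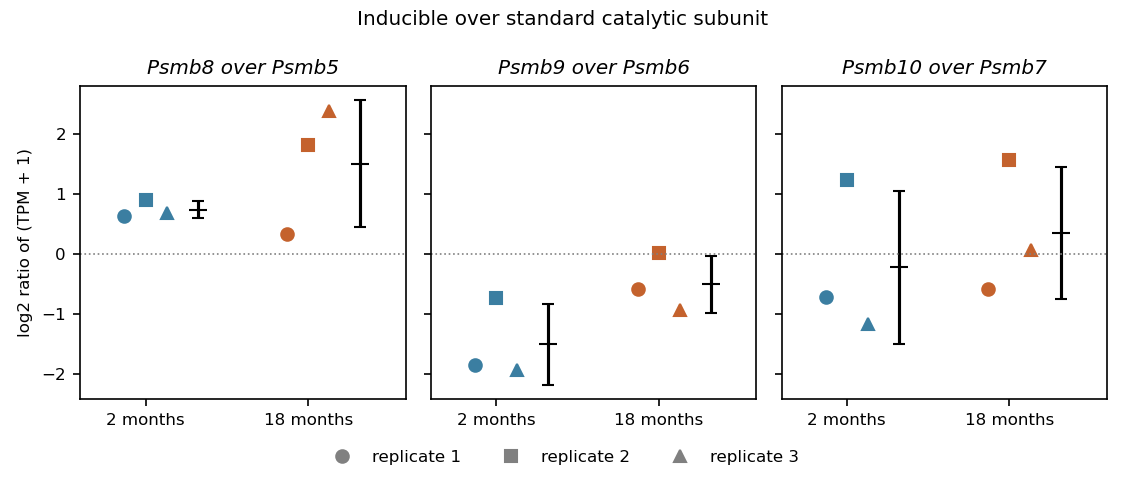
Log2 ratio of (TPM + 1) of each inducible catalytic subunit over its standard counterpart in each library, young in blue and aged in orange, with the mean and SD beside each group; a ratio of 0 (dotted) means equal levels. Groups overlap in all 3 panels, and aged replicates 2 and 3 have the highest Psmb8 over Psmb5 ratios (1.81 and 2.38).

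The 10 genes did not move as 1 block across the libraries. Of the 10, 9 were above their own mean (on the log2 CPM scale) in each of aged replicates 1 and 2, 7 in aged replicate 3, and 2, 4 and 2 in young replicates 1, 2 and 3. Aged replicate 3 was the highest library for 5 genes (Tap2, Psmb8, Psmb9, Psme2 and Erap1), aged replicate 2 for Psmb10 and Calr, and aged replicate 1 for Tap1. A young library was the highest for Tapbp and Psme1. Averaged over the 7 genes of the group whose mean reached 50 CPM, the centred log2 level was -0.27, -0.88 and -0.26 in young and 0.30, 0.43 and 0.67 in aged libraries. Without Erap1, an alternative chosen after seeing the data, it was -0.41, -0.11 and -0.37 in young and 0.16, 0.32 and 0.42 in aged libraries.

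The 5 genes nearest to that average profile, among 2182 others as abundant, were Psmb4, Ctss, H3f3b, Yif1a and Cdc42. Their root mean square distances over the 6 libraries lay between 0.10 (Psmb4 and Ctss) and 0.15 (Cdc42) on the log2 scale. Psmb4 encodes a standard subunit of the proteasome core and Ctss the protease cathepsin S. Psmb4 was at 70.8, 42.2 and 63.3 CPM in the young libraries against 93.8, 92.1 and 126 CPM in the aged ones. The likeness depended on Erap1: without it in the profile, the 5 genes ranked between 42 (Cdc42) and 213 (Yif1a) by distance.

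The rest of the proteasome gave context for the inducible subunits. Of the 19 tested genes of the standard core and its assembly, 8 were fitted above 0 and 11 below, with a median of -0.12, and 0 passed edgeR's test or an unadjusted p under 0.05. Psma3, a core subunit, was at 804 ± 42.8 and 549 ± 204 CPM, and Pomp, the assembly chaperone, at 580 ± 164 and 588 ± 256 CPM. Of the 18 genes of the 19S particle, which unfolds ubiquitin-tagged proteins, 17 were fitted above 0 with a median of 1.01, 0 passed over all genes and 2 (Psmd12 and Psmd1) had an unadjusted p under 0.05. Psmd12 was at 42.2, 9.83 and 20.5 CPM in the young libraries against 82.9, 108 and 136 CPM in the aged ones (log2 fold change 2.17, SE 0.62, edgeR adjusted p = 0.619). All 3 other activator or inhibitor genes were fitted above 0 and 0 passed. Psme3, which encodes the nuclear PA28 gamma, was at 0.448, 0.112 and 4.58 CPM and at 4.41, 11.5 and 43.1 CPM.

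Other genes of peptide loading and protein folding in the endoplasmic reticulum were mixed. Of 15 tested, 11 were fitted above 0 (median 0.60), 0 passed, and 4 had an unadjusted p under 0.05, 3 of them with higher and 1 with lower aged levels. Pdia6, a disulfide isomerase, was at 115, 69.4 and 88.6 CPM in the young libraries against 127, 470 and 285 CPM in the aged ones (log2 fold change 1.69, SE 0.49, edgeR adjusted p = 0.619). Sec61b, part of the channel through which proteins enter the compartment, was lower in each aged library, with means of 276 ± 55.6 and 163 ± 21.9 CPM (fold change on the log2 scale -0.76, SE 0.32). Canx, the chaperone calnexin, was the most abundant of the list at 1023 ± 179 and 827 ± 318 CPM. Of 9 tested peptidases of the cytosol and endosomes, 6 were fitted above 0 (median 0.47) and 0 passed. Lap3, a leucine aminopeptidase, was at 15.3, 34 and 30.5 CPM in the young libraries against 63.3, 117 and 111 CPM in the aged ones (log2 fold change 1.86, SE 0.55, edgeR adjusted p = 0.619).

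The class I molecules that receive the peptides had 8 of 11 tested genes fitted above 0 (median 1.06), 0 passed, and 4 had an unadjusted p under 0.05, all on the higher side. H2-D1 was at 404 ± 68 and 764 ± 306 CPM, while B2m, the light chain, was at 23167 ± 2505 and 22655 ± 7703 CPM. H2-Q7, a non-classical heavy chain, was at 0.192, 0.0744 and 0.179 CPM in the young libraries, close to the level of 3 counts, and at 12.9, 56.1 and 23.4 CPM in the aged ones. It did not pass edgeR's test (adjusted p = 0.378). It was called by DESeq2 (adjusted p = 1.79e-09, with 1.44% of all genes called) and by edgeR with no filter (0.0221, with 0.273% called). Its near-identical neighbours in the MHC make the assignment of its reads uncertain.

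Of 16 tested genes that drive class I transcription or carry interferon signals, 12 were fitted above 0 (median 0.41), 0 passed and 3 had an unadjusted p under 0.05, all on the higher side. Ifngr1, the ligand-binding chain of the interferon gamma receptor, was at 149, 115 and 161 CPM in the young libraries against 326, 812 and 651 CPM in the aged ones. Its log2 fold change was 2.07 (SE 0.39, edgeR adjusted p = 0.378). It was called by DESeq2 (adjusted p = 0.000362, with 1.44% of all genes called) and by edgeR with no filter (0.000112, with 0.273% called). EdgeR on the abundant genes called it too (0.00622, with 1.14% called). Irf1, a transcription factor of the interferon gamma response, was at 22.6, 12.2 and 28.5 CPM in the young libraries against 22.2, 113 and 85.1 CPM in the aged ones, with aged replicate 1 inside the young range. Nlrc5, the activator of class I genes, was at 28.8 CPM in aged replicate 3 and at 1.82 CPM or less in the other libraries. Ifng itself had 0 counts in each library, which allows a level of up to 0.112 CPM (3 counts per library, for counting error only). Of 16 interferon gamma response genes, 11 were fitted above 0 (median 0.91), 0 passed and 2 (Gbp2 and Gbp4) had an unadjusted p under 0.05. In all 8 related lists together, limma-voom (0% of all genes called) and limma-trend on TPM (0.0214%) called 0 genes. DESeq2 called H2-Q7 and Ifngr1, where it called 1.44% of all genes.

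**Figure D5:**
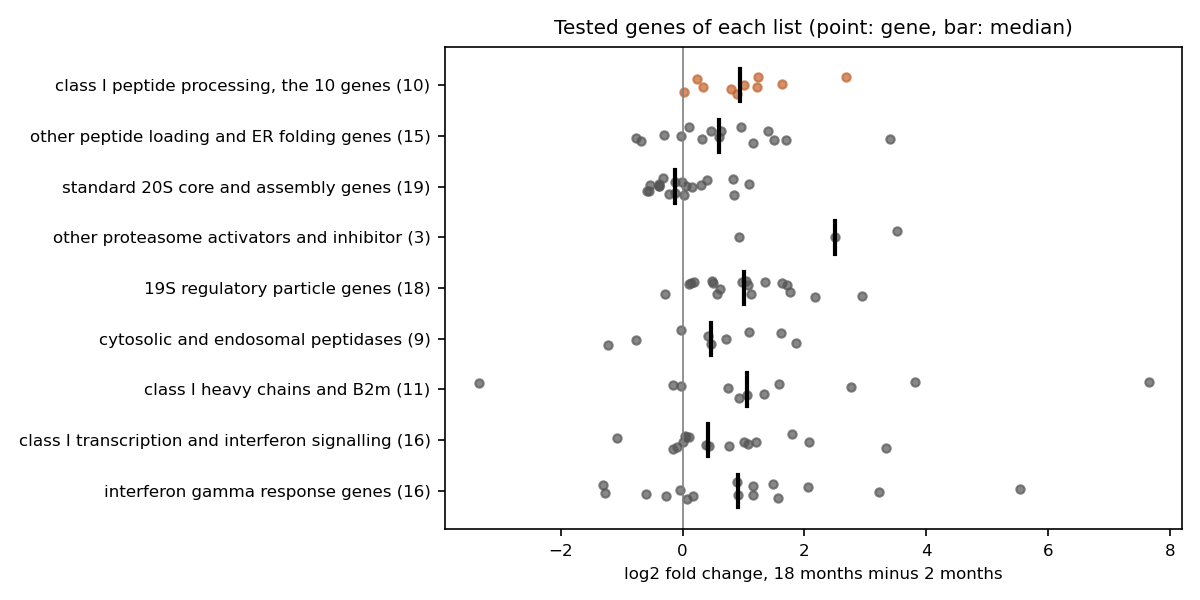
Log2 fold change of aged against young libraries for each tested gene of the 10-gene group (orange) and of 8 related lists (grey), with the number tested in brackets and the median as a black bar. Medians run from -0.12 for the standard core to 2.51 for the 3 other activator and inhibitor genes.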

How the data were processed

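The members and gene lists were chosen with earlier results of these data known. Per the labels' protocols, cDNA was made from about 500 pg of RNA by template switching, amplified over 13 PCR cycles, tagmented and read as single reads, which keeps no strand. Per the submitters' processing notes, the tools were bcl2fastq 2.20, FastQC, fastp, Picard and DRAGEN, and the build mm10; which tool did what, and the annotation, is not given in the sources used here. Per the file headers, each deposited table held estimated counts per gene, the authors' TPM (scaled for depth and gene length) and gene lengths in bases. Counts were rounded to whole numbers.

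Of 35598 identifiers, 35513 matched GENCODE M21 with the version ignored. The 10661 genes kept by filterByExpr were scaled by TMM and tested with edgeR 4.0.16 (R 4.3.3; quasi-likelihood, robust, no covariate), adjusted by Benjamini-Hochberg over all of them and called at an adjusted p under 0.05. Each SE was obtained from the fold change and its F statistic (their ratio after taking the root of F). The procedure was tested on simulated data. DESeq2 1.42.0, limma 3.58.1 and other filters were alternatives. Subunit ratios used log2(TPM + 1) and an exact permutation test. Named were all 10 genes, and of each other list the 2 most abundant and the 1 with the smallest p in each direction. Some genes that this rule took are not reported here. Psmd1, Gbp2, Cast, Zbtb22, Psme2b, Emc9 and Gm20496 were named after their values were seen. Promoter sequences are from RefSeq (GRCm38.p6). PCR copies are not independent molecules, so intervals cover counting error only.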

Additional observations from a re-analysis of the deposited data

How the results depend on the processing

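All alternatives were planned, with earlier results known, except the profile without Erap1. None of the 15 alternatives called any of the 10 genes, and their smallest adjusted p was 0.125, for Psmb8 among genes averaging 50 CPM or more. That filter left 7 of the 10 genes, and the one at 10 CPM in 3 libraries left out Tap2. Of 146 fitted values under these alternatives, 143 kept their sign; the other 3 were of Tapbp (-0.26 without young replicate 3, -0.06 without aged replicate 1 and -0.24 in TPM), whose value without 1 library ranged from -0.26 to 0.40 and whose cause was not tested. The median of the 10 genes lay between 0.81 and 1.1. Over all genes, 1 was called higher and 0 lower. These became 113 and 41 in DESeq2, 51 and 11 with no filter, 19 and 6 among genes averaging 50 CPM or more, 2 and 0 in limma-trend on TPM and 0 and 0 in limma-voom. With 1 library left out, 0 to 2 were called higher (0 without aged replicate 2 or 3) and 0 to 1 lower. The filters differed in the number of genes entering, and the cause of these changes was not tested.

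With a replicate block, 1 gene was called higher, 0 lower and 0 of the 10. The deviations of same-numbered libraries from their group means had correlations of -0.0097, -0.0257 and 0.022. Such low values cannot show that these libraries share nothing, and the labels do not say what the replicate number marks. The difference of Psmb10 over Psmb7 ranged from -0.04 without aged replicate 2 to 1.29 without young replicate 2. That of Psmb8 over Psmb5 ranged from 0.33 without aged replicate 3 to 1.35 without aged replicate 1, and that of Psmb9 over Psmb6 from 0.74 to 1.39.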
